A study of Mus musculus with 6 samples.

Results

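Promoter regions of gene models are the intervals marked by H3K9me3 that lie at or near the start of mouse loci with a provisional symbol in the authors' annotation. They were taken from a table of 202553 regions as autosomal ones that the authors' annotation places in the class of promoters within 1 kb. Their assigned symbol is made of Gm and digits, or ends in Rik with or without digits after it. The rule found 370 regions of 336 symbols, which is 0.183% of all regions and 4.87% of the 7592 autosomal promoter regions. Of these, 225 carried a Gm symbol, the name of a predicted gene, and 145 a Rik symbol, the name of a RIKEN cDNA clone. The rule also admitted clone names that begin with AC or AL, and it found 0 of them. Another 26 promoter regions of Gm or Rik symbols lay on X, Y or the mitochondrial genome and were left out by the rule. The nearest set for comparison was the 7222 autosomal promoter regions of named genes.

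The mark was profiled in frozen quadriceps femoris of mice by CUT&Tag, where an antibody on the histone guides a transposase that tags the DNA around it. The groups were Prr14-KO, with 3 libraries numbered 4, 5 and 7, and Prr14-WT, with 3 libraries numbered 3, 4 and 8. The sources used here do not give age, sex, strain or the part of Prr14 that was deleted, nor do they state that each library came from a different animal, so the p-values measure the spread between these libraries. Whole muscle holds fibres, vessels, connective tissue and satellite cells, and in such a bulk sample a change in cell makeup and a change of the mark per cell cannot be told apart. The study asked where the mark differs between the genotypes.

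H3K9me3 is the trimethylated form of lysine 9 on histone H3. It is written by methyltransferases of the SUV39H and SETDB1 kinds, is bound by the heterochromatin protein HP1, and covers satellite repeats, transposons and some clusters of zinc finger and receptor genes. PRR14 is a protein of the nuclear lamina that ties HP1-bound heterochromatin to the nuclear edge. Gene models are a mixed class: some are true protein-coding genes under a provisional symbol, others are noncoding RNAs, pseudogenes or copies in repeated sequence.

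The libraries held 4324444 to 4707466 counts in Prr14-KO muscle and 4636898 to 4756133 counts in Prr14-WT muscle. Prr14-KO replicate 7 stood apart, with 0.612% of its counts on the mitochondrial genome against 0.146% and 0.248% in the other Prr14-KO libraries and 0.174% to 0.366% in Prr14-WT libraries. It also had the highest share of counts in promoter regions of named genes, 4.20%, against 3.35% and 3.79% in the other Prr14-KO libraries and 3.46% to 3.84% in Prr14-WT libraries. The promoter region of Prr14 itself had 14, 56 and 54 counts in Prr14-KO libraries against 10, 18 and 10 in Prr14-WT libraries (log2 difference 1.79, SE 0.38, edgeR quasi-likelihood Benjamini-Hochberg adjusted p = 0.0216), with overlapping groups, and without the deleted part this does not check the labels. Of 8 skeletal muscle marker genes 2 had a promoter region in the table, Acta1 and Ttn, and of 8 markers of other cells 1 had, Pdgfra. The mark does not read expression, so these markers do not test the tissue label.

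The gene-model regions were short and lay around the annotated start, and how many covered it was not counted. Their median width was 345.5 bp, with quartiles of 199.5 and 623.75 bp, against a median of 349 bp for promoter regions of named genes and 317 bp for other autosomal regions. Widths of 1000 bp or more were found for 35 gene-model regions (9.46%), against 6.78% of named-gene promoter regions. By the authors' annotation, the median distance to the start site was 98 bp, with quartiles of -170.5 and 365.75 bp, and 227 regions (61.4%) lay downstream of the start, against 64.8% for named genes. In this 1 kb class 23 regions had an annotated distance over 1000 bp, up to 1527 bp. The point of the region from which these distances run was not examined here. By symbol or listed synonym, RefSeq gave a kind of gene for 252 of the 336 symbols, covering 279 regions. Of those regions 224 were of protein-coding genes, 25 of long noncoding RNAs, 27 of pseudogenes (10 of them transcribed) and 3 of other RNAs. The 91 regions whose symbol found no match are named from the authors' table only.

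RefSeq (GRCm38.p6) lists a promoter, from 250 bases before to 50 after the start, for 193 of the 336 symbols, and 92 gene-model regions overlapped the promoter of their own symbol. These promoters were poorer in CpG than those of the named genes. The CpG count observed over expected was 0.6 or more in 30 of 92 (32.6%), against 61.5% of 2296 promoters of named genes that a region overlapped, and 35.8% of all 32851 promoters of the table. The median GC content was 54.5% for gene models, 63.3% for the named genes and 52.7% over the table. No CG was found in 8 gene-model promoters (8.70%), against 1.13% of those of named genes. A promoter with no CG is that of 4931408C20Rik, whose promoter region was the widest and the strongest outside 2 stretches of very high counts described below, and it is shown beside that of 5730507C01Rik, the strongest of the 30 CpG-rich ones though not the richest in CpG. Their 250 bases before the start, with every CG in capitals, lie at chr1:26687461-26687710 on the minus strand and chr12:18514260-18514509 on the plus strand.
4931408C20Rik: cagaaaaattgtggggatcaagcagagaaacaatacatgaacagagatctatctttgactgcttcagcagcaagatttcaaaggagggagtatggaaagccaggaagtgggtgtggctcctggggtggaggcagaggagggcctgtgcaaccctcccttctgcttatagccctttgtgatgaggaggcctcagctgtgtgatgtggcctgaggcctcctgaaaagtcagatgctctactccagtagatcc
5730507C01Rik: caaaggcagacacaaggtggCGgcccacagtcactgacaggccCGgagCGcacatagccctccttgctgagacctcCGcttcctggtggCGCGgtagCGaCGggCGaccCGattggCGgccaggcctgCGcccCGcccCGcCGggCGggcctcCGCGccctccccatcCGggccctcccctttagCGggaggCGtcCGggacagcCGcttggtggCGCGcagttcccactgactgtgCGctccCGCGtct
The first holds 0 CG and the second 28. Both were marked: the region of 4931408C20Rik averaged 127 ± 6.22 CPM (counts scaled to a common library size by the trimmed mean of M-values, TMM, and given per 1000000) in Prr14-KO libraries and 121 ± 4.54 CPM in Prr14-WT libraries (SD, n = 3 each). The region of 5730507C01Rik had 86, 71 and 64 counts in Prr14-KO libraries 4, 5 and 7, against 75, 60 and 77 in Prr14-WT libraries 3, 4 and 8. The genotypes overlapped at both.

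Some gene models are near copies of each other, and their counts are uncertain as far as reads could be placed at either copy, which was not examined here. Among the matched promoters, 4 pairs aligned with 85.9% to 92.8% identity over their 300 bases, where bases without a partner counted as differences. The closest were Gm14124 and Gm14139 on chromosome 2, shown here at chr2:150257267-150257516 and chr2:150181505-150181754, both on the plus strand. Capitals mark the bases that differ or have no partner in the alignment.
Gm14124: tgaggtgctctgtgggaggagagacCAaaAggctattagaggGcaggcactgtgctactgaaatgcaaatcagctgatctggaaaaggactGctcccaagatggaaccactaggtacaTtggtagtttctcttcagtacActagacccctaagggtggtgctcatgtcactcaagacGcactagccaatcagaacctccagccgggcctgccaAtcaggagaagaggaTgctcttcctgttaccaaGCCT
Gm14139: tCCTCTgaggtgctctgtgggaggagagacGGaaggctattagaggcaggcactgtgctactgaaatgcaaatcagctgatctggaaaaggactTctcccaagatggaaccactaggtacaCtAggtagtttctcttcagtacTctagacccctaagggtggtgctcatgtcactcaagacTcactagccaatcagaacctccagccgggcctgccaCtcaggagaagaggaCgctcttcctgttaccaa
Over these 250 bases each, 236 of 256 aligned positions were identical and 20 differed or had no partner. Some of these lie at the ends, where the windows are offset. The Gm14124 region had 32, 20 and 5 counts in Prr14-KO libraries 4, 5 and 7, against 12, 21 and 12 in Prr14-WT libraries 3, 4 and 8. The Gm14139 region had 12, 10 and 10 counts in Prr14-KO libraries, against 25, 18 and 15 in Prr14-WT libraries. The Prr14-KO values lay below all Prr14-WT values at Gm14139 and overlapped them at Gm14124, with log2 differences of -0.77 (SE 0.53, edgeR unadjusted p = 0.144) and 0.40 (SE 0.48, edgeR unadjusted p = 0.411) in that order, and the sources used here do not say how reads with several placements were counted. The other pairs were Gm17019 with Gm9758 (92.6%), 4933421I07Rik with Gm3404 (88.3%) and Gm10354 with Gm21190 (85.9%).

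Common promoter motifs were searched on both strands of the 300 bases, as letters only. TATAAA, the letters of a TATA box, was found in 13.0% of gene-model promoters, against 7.23% for named genes and 13.6% over the table. GGGCGG, a GC box, was found in 38.0%, against 63.2% for named genes and 35.7% over the table. CCAAT was found in 41.3%, against 34.0% for named genes and 37.4% over the table, and GCCATNTT, the core letters of a YY1 motif, in 4.35%, against 4.44% for named genes and 6.05% over the table. For TATAAA and GGGCGG the shares of gene-model promoters were closer to those of the whole table than to those of named genes with a region. The level of the mark did not follow CpG content closely: the median was 4.74 CPM in the 30 CpG-rich and 4.22 CPM in the 62 other gene-model promoters, with Spearman's rho of -0.11 over 92 promoters, which share libraries and differ in width.

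Nearly all counts of the set came from 2 stretches, at chr9:3000117-3038248 and chr2:98662236-98667321. Together they held 14 regions of 10 symbols, and these carried 93.9% to 95.3% of the counts of all 370 regions in each library. The region of Gm10800 on chromosome 2 alone held 48.6% to 50.1%. Of the 15 regions that the table lists within both stretches, 14 were gene-model promoters. As background, both places are known in the mouse assembly for satellite-like repeats and for very high signal in many sequencing assays. No input or control-antibody library was analysed here, so the share of such signal in the counts was not tested. None of the 10 symbols was matched in RefSeq, so no sequence is shown for them.

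The Gm10800 region (chr2:98666548-98667321) had 91787, 84461 and 71120 counts in Prr14-KO replicates 4, 5 and 7, against 86298, 90581 and 87465 counts in Prr14-WT replicates 3, 4 and 8. The Gm10718 region (chr9:3023418-3024659) had 41490, 35084 and 31744 counts in Prr14-KO libraries, against 37798, 40069 and 38349 in Prr14-WT libraries. The Gm10722 region (chr9:3000117-3002305) had 21529, 19355 and 16797 counts in Prr14-KO libraries, against 20072, 21475 and 20030 in Prr14-WT libraries. In all of these Prr14-KO replicate 7 was the lowest library, and the groups overlapped. The Gm10801 region, the other one on chromosome 2, averaged 2304 ± 235 CPM in Prr14-KO libraries and 2364 ± 134 CPM in Prr14-WT libraries (SD, n = 3 each). These 4 regions were among the 20 regions of the whole table with the highest mean.

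The remaining 10 regions of the stretches belonged to Gm10717, Gm17535, Gm11168, Gm10720, Gm10719 and Gm10715 and had mean levels of 60.4 to 633 CPM. Gm10717, with 3 regions, summed to 1092 ± 138 CPM in Prr14-KO libraries and 1113 ± 85.1 CPM in Prr14-WT libraries (SD, n = 3 each). Over all 14 regions, the log2 difference of Prr14-KO over Prr14-WT ran from -0.14 for Gm10715 to 0.02 for the first Gm10717 region, with a median of -0.04. It was below 0 in 12 of 14, which share libraries and repeated sequence, and the groups overlapped in every one of the 14. The smallest unadjusted p was 0.289 by edgeR's quasi-likelihood test.

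**Figure D1:**
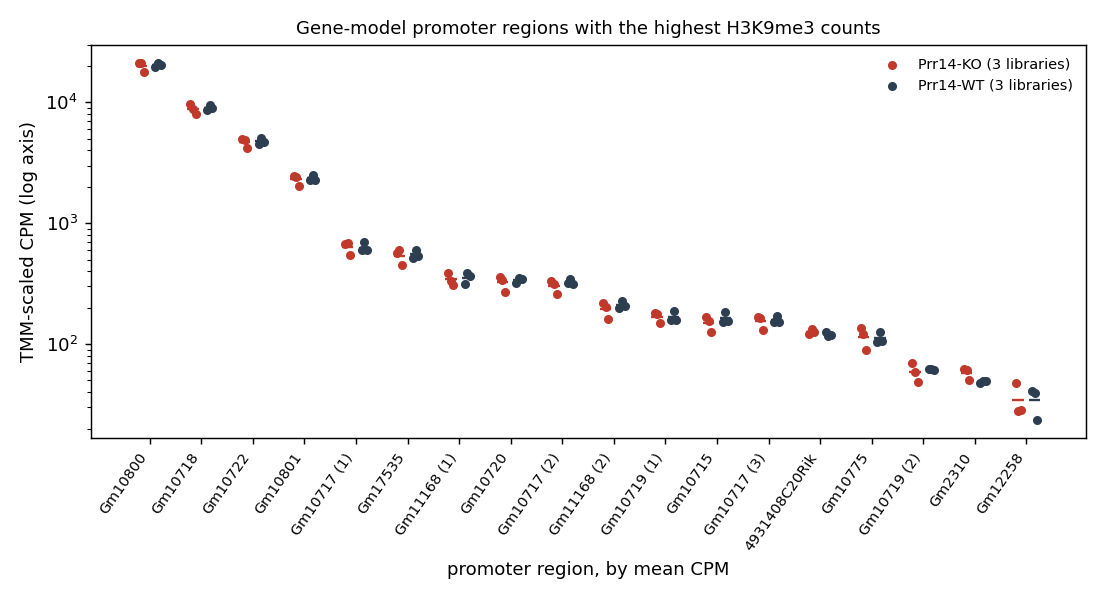
TMM-scaled CPM on a log axis for the gene-model promoter regions with the highest mean, ordered by mean, with Prr14-KO libraries left of Prr14-WT libraries at each region. The Gm10800 region lies near 20177 CPM in Prr14-KO and 20492 CPM in Prr14-WT libraries, and the points of both genotypes overlap in each region of the 2 stretches.

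As a share of all counts, the regions in the stretches took 3.80%, 3.70% and 3.18% in Prr14-KO replicates 4, 5 and 7, against 3.50%, 3.80% and 3.62% in Prr14-WT replicates 3, 4 and 8. The low value was that of Prr14-KO replicate 7, the library with the most mitochondrial counts and the largest share in named-gene promoters, and the part of these in it was not tested. All 370 regions together took 3.75 ± 0.322% in Prr14-KO and 3.83 ± 0.152% in Prr14-WT libraries (SD, n = 3 each; log2 difference -0.03, two-sided exact permutation p = 0.80, where 3 against 3 cannot go below 0.10). Without Prr14-KO replicate 7 the log2 difference was 0.04, and without Prr14-WT replicate 4 it was 0.0024. The 356 regions outside the stretches took 0.189%, 0.190% and 0.207% in Prr14-KO libraries, against 0.186%, 0.192% and 0.188% in Prr14-WT libraries. Here replicate 7 was the highest, and the log2 difference was 0.05 (two-sided exact permutation p = 0.40).

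**Figure D2:**
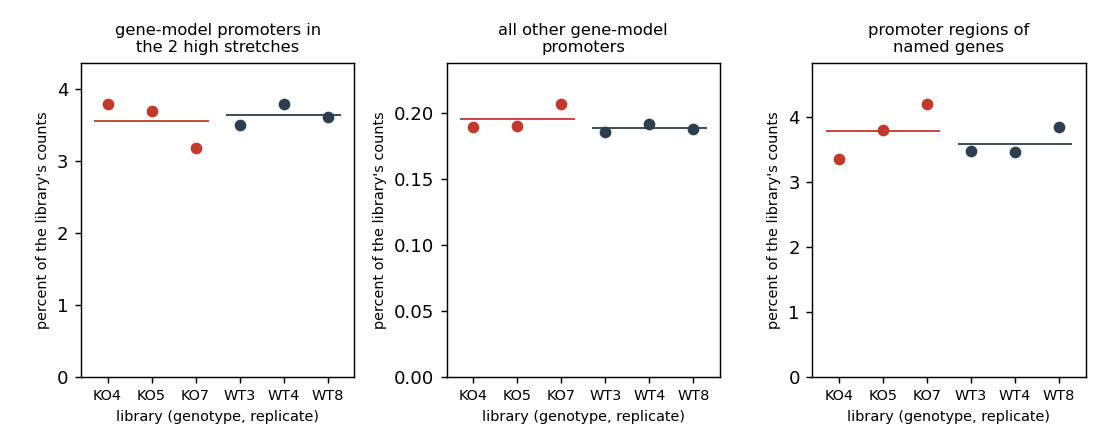
Percent of each library's counts in the gene-model promoters of the 2 stretches (left), in all other gene-model promoters (middle) and in promoter regions of named genes (right), with 3 Prr14-KO libraries left of 3 Prr14-WT libraries, named by genotype and replicate, and lines for the group means. Prr14-KO replicate 7 is lowest in the left panel, at 3.18%, and highest in the other panels, at 0.207% and 4.20%.

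By kind of symbol, the Gm regions took 3.68 ± 0.329% of counts in Prr14-KO and 3.75 ± 0.152% in Prr14-WT libraries, and the Rik regions 0.0782 ± 0.0075% in Prr14-KO and 0.0746 ± 0.0011% in Prr14-WT libraries (SD, n = 3 each). The log2 differences were -0.03 and 0.07, and both classes had a two-sided exact permutation p of 0.80, also 0.80 after adjustment over the 2 classes. Set against promoter regions of named genes within each library, the summed counts gave a log2 ratio of -0.01 ± 0.284 in Prr14-KO and 0.10 ± 0.109 in Prr14-WT libraries (SD, n = 3 each; difference -0.10, two-sided exact permutation p = 0.70). Without the regions of the stretches that difference was -0.02. No difference between the genotypes larger than the spread between libraries was therefore detected in the summed mark.

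Outside the stretches the gene-model promoters were marked about as much as other regions. Their median level was 3.68 CPM over 356 regions, against 3.72 CPM for promoter regions of named genes and 3.61 CPM for other autosomal regions. Per kb of region the median was 11.2 CPM for all 370 gene-model regions, 10.7 CPM for promoter regions of named genes and 11.2 CPM for other autosomal regions. The share at high levels differed. Of 370 gene-model regions 17 (4.59%) reached 50 CPM, as did 11 named-gene promoter regions (0.152%) and 259 other autosomal regions (0.136%). Without the stretches 3 of 356 (0.843%) did. Levels ran with width, with Spearman's rho of 0.81 over the 370 regions as a description of points that share libraries, and CPM here is not divided by width.

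In the test of density, the median of log2(density + 1), with density as CPM per kb of region on library totals, over the 370 regions was set against that over named-gene promoter regions in each library. It differed by 0.22, -0.05 and -0.02 in Prr14-KO replicates 4, 5 and 7, and by 0.09, 0.16 and -0.01 in Prr14-WT replicates 3, 4 and 8. Gene models were higher in 3 of 6 libraries, with a mean difference of 0.07 ± 0.107 (SD over 6 libraries, two-sided exact sign-flip permutation p = 0.25). With the mean over regions in place of the median the difference was 0.23 and positive in 6 of 6 libraries (two-sided exact sign-flip permutation p = 0.03125, the smallest that 6 libraries allow). Without the regions of the 2 stretches the mean over regions gave -0.018 (two-sided exact sign-flip permutation p = 0.8125) and the median 0.019 (two-sided exact sign-flip permutation p = 0.75), so the higher mean rested on those 14 regions.

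**Figure D3:**
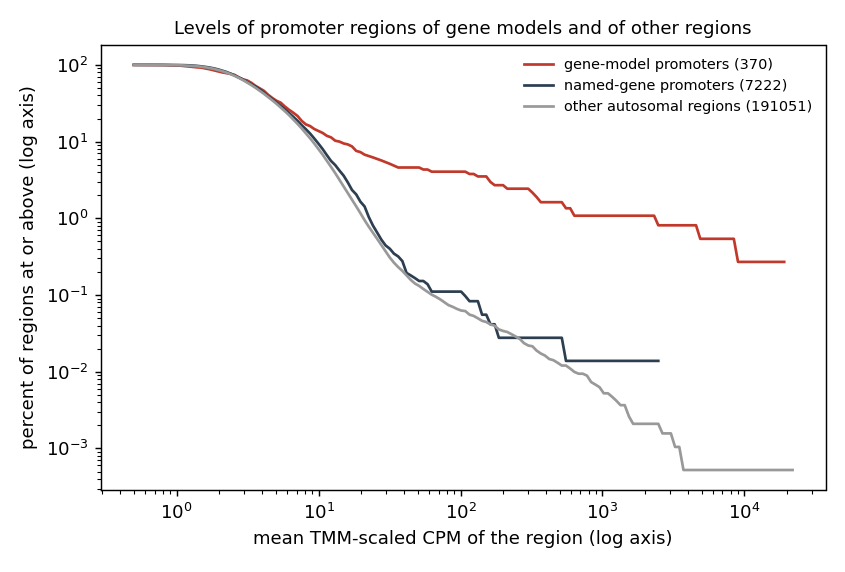
Percent of regions at or above a given mean TMM-scaled CPM over all 6 libraries, both on log axes, for 370 gene-model promoters, 7222 named-gene promoters and 191051 other autosomal regions. The curves run together around the medians of 3.83, 3.72 and 3.61 CPM in that order and part above them. There the gene-model curve holds 4.59% of its regions at 50 CPM or more and reaches 20335 CPM. The highest single value, 22921 CPM, belongs to other autosomal regions.

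A few gene models outside the stretches carried strong mark. The region of 4931408C20Rik (chr1:26685978-26688379), the widest of the set at 2401 bp, had 521, 530 and 502 counts in Prr14-KO libraries against 554, 499 and 505 in Prr14-WT libraries (log2 difference 0.07, SE 0.14). The region of Gm10775 (chr13:65258268-65260302) averaged 115 ± 24.3 CPM in Prr14-KO and 112 ± 12.3 CPM in Prr14-WT libraries (SD, n = 3 each), with zinc finger genes and receptor genes of the olfactory or vomeronasal families within 100 kb. Groups overlapped in both. The region of Gm2310 (chr15:8518199-8520055) had 266, 243 and 202 counts in Prr14-KO libraries against 211, 209 and 209 in Prr14-WT libraries. After scaling, every Prr14-KO value of Gm2310 lay above every Prr14-WT value, at 58.0 ± 6.33 CPM in Prr14-KO and 48.7 ± 0.706 CPM in Prr14-WT libraries (SD, n = 3 each; log2 difference 0.25, SE 0.17). It did not pass edgeR's quasi-likelihood test (unadjusted p = 0.130, Benjamini-Hochberg adjusted p = 0.998), and it is named here after its values were seen.

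Across the genome, 76 gene-model regions (20.5%) overlapped the span of a named protein-coding gene. Of the 370 regions, 40 (10.8%) lay within 100 kb of a zinc finger gene and 25 (6.76%) within 100 kb of an olfactory or vomeronasal receptor gene. For the 6483 promoter regions of named genes outside these families the shares were 4.35% and 1.91%. Members of the families were left out of that set by symbol. Gene models carry no family name and were not filtered, so the shares are not like for like. These families are known to be clustered and to lie in H3K9me3 in several tissues. Gene models near zinc finger genes had a median of 3.51 CPM and those near receptor genes 4.05 CPM, against 3.84 and 3.80 CPM for gene models away from each family. Per kb of region the medians were 11.8 and 13.1 CPM, against 11.1 CPM away from each family, so the order at zinc finger genes turned. Outside the stretches the zinc finger medians were 3.51 against 3.68 CPM, and 11.8 against 10.8 CPM per kb. These differences were not tested.

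Gene models cluster in the genome, and 67 regions fell into 9 runs of 4 or more with gaps of at most 250 kb. Chromosome 14 held the most, with 45 regions of 42 symbols, or 14.6% of its promoter regions. Of these 14 lay below 8 Mb and 18 between 40 and 45 Mb. The chromosome 14 regions were not stronger than the set as a whole. Their median was 3.28 CPM, against 3.83 CPM for all 370 gene-model regions, and 8.40 against 11.2 CPM per kb of region. Of these regions 31 were tested, 17 with a log2 difference above 0 and 14 below, and the median log2 difference was 0.06. Another 3 runs, on chromosomes 10, 11 and 16, held genes of keratin-associated proteins, which build the hair shaft. RefSeq lists 16 genes with a Krtap name within the run on chromosome 11, 17 within that on chromosome 16 and 1 within that on chromosome 10. Their 26 regions summed to 135, 120 and 128 CPM in Prr14-KO libraries against 120, 124 and 116 CPM in Prr14-WT libraries. The groups overlapped, at 128 ± 7.18 CPM in Prr14-KO and 120 ± 4.17 CPM in Prr14-WT libraries (SD, n = 3 each; log2 difference 0.09). The runs were picked after the positions and values were seen, and no test was made of them.

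Region by region, 276 of the 370 had enough counts to be tested (74.6%), and edgeR's quasi-likelihood test called 0 of them at a Benjamini-Hochberg adjusted p under 0.05. Of all 153789 tested regions, 20 were called (0.013%), 5 higher and 15 lower in Prr14-KO libraries, so that few calls could come from a set of this size at the background rate. DESeq2 and limma-voom also called 0 gene-model regions, against 0.0125% and 0.0111% of all regions with an adjusted p. DESeq2 gave no adjusted p for 136 of the 370 gene-model regions, so these could not be called by it. At an unadjusted p under 0.05, edgeR gave 12 gene-model regions (4.35%), against 3.84% of all regions. Of these 7 were higher, against 2.02% of all regions, and 5 were lower, against 1.81%. At the same unadjusted level DESeq2 gave 17 of 370, against 3.97% of all regions, and limma-voom 7 of 276, against 2.91%. The groups did not overlap in 26 gene-model regions (9.42%), against 9.61% of all regions. Among these 14 were higher, against 4.68% of all regions, and 12 lower, against 4.93%. By edgeR and by overlap, the shares of gene-model regions were close to those of the table. The authors' deposited table gave an adjusted p for 292 of the 370 regions, and 0 of these were under 0.05, against 13 of the 163282 regions with an adjusted p in that table (0.00796%).

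The differences lay on both sides of 0, with a wider spread above it. The median log2 difference was 0.01 over the 276 tested regions, with quartiles of -0.18 and 0.30, and 143 lay above 0 and 133 below. The median over all tested regions was 0.00. Within 0.5 of 0 lay 210 regions (76.1%), against 74.3% of all tested regions and 71.6% of tested named-gene promoter regions. The median standard error was 0.44, against 0.46 over all tested regions. Small changes were therefore not detectable at this depth in many single regions. The standard error was smaller in the strongest regions, at 0.083 for Gm10800. The 94 regions without a test had a median of 7.17 counts per library and at most 13.7, and 27 regions of the set had 0 counts in 1 or more libraries. For promoter regions of named genes, 300 of 5515 (5.44%) had an unadjusted p under 0.05, with 232 higher and 68 lower in Prr14-KO libraries, and the median log2 difference was 0.09. Prr14-KO replicate 7 had the largest share of counts in named-gene promoters, and its part in these 300 regions was not tested.

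**Figure D4:**
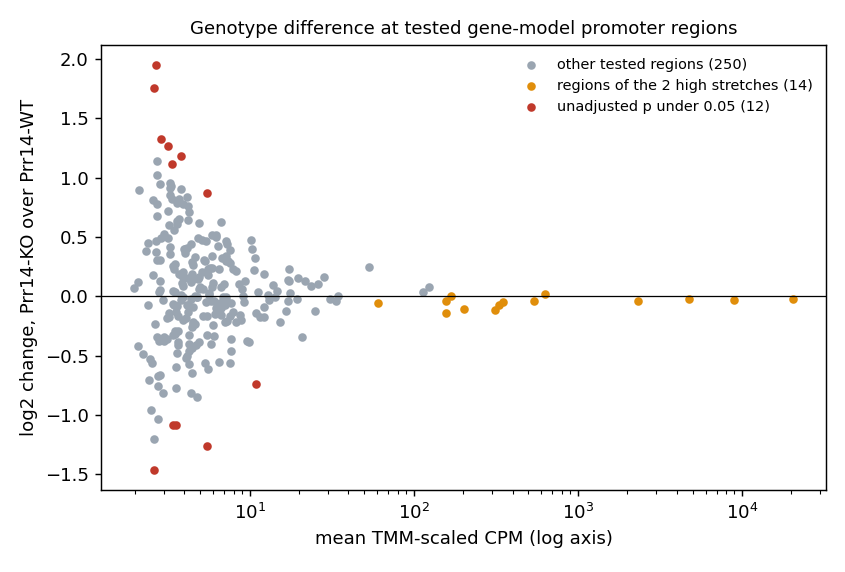
Log2 difference of Prr14-KO over Prr14-WT against mean TMM-scaled CPM (log axis) for the 276 tested gene-model promoters, with regions of the 2 stretches and the 12 regions with an unadjusted p under 0.05 in colours of their own. The regions of the stretches lie between -0.14 and 0.02, and the spread of the other regions widens at low CPM, up to 1.95 and down to -1.47.

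Among the regions with the smallest p on the higher side, that of 1700014D04Rik (chr13:59743429-59743667) had 13, 15 and 24 counts in Prr14-KO libraries against 7, 5 and 2 in Prr14-WT libraries. This is 4.28 ± 1.56 CPM in Prr14-KO and 1.08 ± 0.566 CPM in Prr14-WT libraries, without overlap (SD, n = 3 each; log2 difference 1.95, SE 0.68, edgeR unadjusted p = 0.00395). The region of Gm2974 (chr14:4182005-4182164) had 13, 21 and 15 counts in Prr14-KO libraries against 2, 10 and 3 in Prr14-WT libraries, again without overlap (log2 difference 1.76, SE 0.69). The regions of 2510002D24Rik and Gm8094 had log2 differences of 1.27 and 1.32, and the groups overlapped for Gm8094, where Prr14-KO replicate 5 had 5 counts. Single libraries set the size of some of these: the log2 difference of 2510002D24Rik was 0.70 without Prr14-KO replicate 7, and that of Gm2974 was 2.74 without Prr14-WT replicate 4. Both 1700014D04Rik and Gm2974 also had a stronger region, which overlapped their listed promoter. Its mean was 5.42 and 7.13 CPM in that order, against 2.68 and 2.60 CPM for the regions given here. Neither stronger region was among the 5 with the smallest p in either direction.

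The region of 9530053A07Rik (chr7:28129242-28129654) had 20, 32 and 13 counts in Prr14-KO libraries against 4, 14 and 12 in Prr14-WT libraries, with overlap (log2 difference 1.18, SE 0.51). Its sequence is shown because it had the smallest edgeR unadjusted p, 0.0213, among the regions that overlap the listed promoter of their symbol. The bases lie at chr7:28129216-28129465 on the plus strand, with CG in capitals.
9530053A07Rik: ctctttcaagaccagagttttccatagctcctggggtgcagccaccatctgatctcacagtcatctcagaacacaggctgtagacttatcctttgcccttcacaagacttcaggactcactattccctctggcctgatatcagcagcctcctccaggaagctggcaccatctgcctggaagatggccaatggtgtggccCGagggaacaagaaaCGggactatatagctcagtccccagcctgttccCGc
These 250 bases hold 3 CG. The log2 difference was 0.76 without Prr14-KO replicate 5 and 0.79 without Prr14-WT replicate 3, and the level over all libraries was 5.33 ± 2.47 CPM in Prr14-KO and 2.34 ± 1.26 CPM in Prr14-WT libraries (SD, n = 3 each).

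On the lower side, the region of Gm12117 (chr11:33276012-33276806), a pseudogene within the span of Ranbp17, an importin-family gene, had 4, 19 and 16 counts in Prr14-KO libraries against 35, 37 and 28 in Prr14-WT libraries. This is 3.25 ± 2.04 CPM in Prr14-KO and 7.75 ± 1.08 CPM in Prr14-WT libraries, without overlap (SD, n = 3 each; log2 difference -1.26, SE 0.41, edgeR unadjusted p = 0.00226). The region of Gm49368 (chr7:128114701-128115818) lies within the span of Itgam, the integrin gene of myeloid cells, and had 21, 38 and 40 counts in Prr14-KO libraries against 59, 56 and 61 in Prr14-WT libraries (log2 difference -0.74, SE 0.28). The region of Gm17428 (chr14:54975828-54976059) lies within the span of Myh7, the slow myosin heavy chain gene, and had 11, 1 and 16 counts in Prr14-KO libraries against 23, 21 and 19 in Prr14-WT libraries (log2 difference -1.09, SE 0.53). Prr14-KO replicate 5 was by far the lowest at Gm17428. The region of 1700016K19Rik had 8, 7 and 2 counts in Prr14-KO libraries against 18, 16 and 16 in Prr14-WT libraries, and that of 2610044O15Rik8 had 19, 3 and 5 in Prr14-KO libraries against 16, 31 and 13 in Prr14-WT libraries, and the groups overlapped at 2610044O15Rik8 but not at 1700016K19Rik. Here too single libraries weighed on the log2 difference. Without Prr14-KO replicate 4 it was -0.82 for Gm12117, -0.48 for Gm49368 and -2.19 for 2610044O15Rik8. Without Prr14-KO replicate 5 it was -0.57 for Gm17428 and -0.69 for 2610044O15Rik8, without Prr14-KO replicate 7 -1.74 for Gm17428, and without Prr14-WT replicate 4 -0.62 for 2610044O15Rik8. For all 10 of these regions the edgeR Benjamini-Hochberg adjusted p was 0.998, so none passed.

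**Figure D5:**
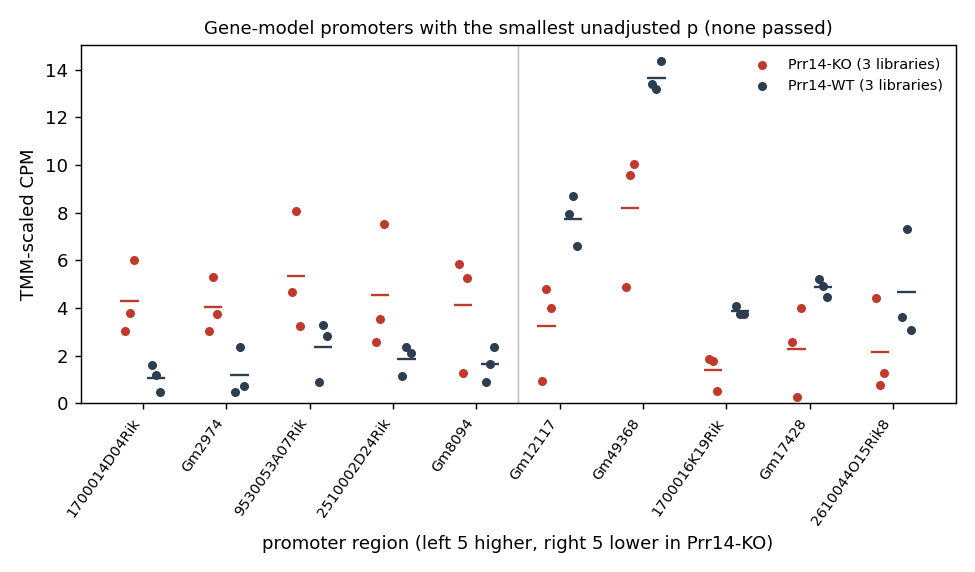
TMM-scaled CPM per library for the 5 gene-model promoters with the smallest unadjusted p in each direction, with Prr14-KO points left of Prr14-WT points and bars for the group means. Values are low throughout, as at 1700014D04Rik with 4.28 CPM in Prr14-KO and 1.08 CPM in Prr14-WT libraries, and none of the 10 regions passed the test.

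Gene models with several promoter regions gave the same picture. Outside the stretches, 3 symbols had 3 regions each. Those of 4932414N04Rik summed to 10.5 ± 1.07 CPM in Prr14-KO and 11.6 ± 1.23 CPM in Prr14-WT libraries, those of Gm6871 to 9.78 ± 2.20 CPM in Prr14-KO and 10.5 ± 0.734 CPM in Prr14-WT libraries, and those of Gm8897 to 8.44 ± 1.99 CPM in Prr14-KO and 8.90 ± 0.957 CPM in Prr14-WT libraries (SD, n = 3 each). Each difference was smaller than the sum of the SDs, and the groups overlapped for 4932414N04Rik, Gm6871 and Gm8897. Another 26 symbols had 2 regions and 306 had 1.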

How the data were processed

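H3K9me3 CUT&Tag libraries of quadriceps femoris were grouped by the genotype labels, 3 Prr14-KO and 3 Prr14-WT. The build GRCm38 and the tools BWA, MACS2, bedtools, deepTools, Trimmomatic and DESeq2 1.6.3 are listed, per the submitters' processing notes, with no settings or roles. The sources used here do not say if regions were called on pooled libraries, or if their positions start at 0 or 1. Positions of regions are those of the table, unconverted.

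Per the file headers, the deposited table holds raw counts per region and library, whole numbers summing to 4324444 to 4756133 per library. The authors also deposited a normalised signal, equal to the count divided by 1 factor per library, a log2 fold change with p-value and adjusted p-value, and a score per region. The adjusted p-value was used to count calls in the authors' deposited table, and the log2 fold change, signal and score were not used for results.

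All regions were fitted together with edgeR 4.0.16 in R 4.3.3 (TMM scaling, filterByExpr with minimum count 10 and minimum total 15, robust quasi-likelihood, genotype as the only term), with Benjamini-Hochberg adjustment over 153789 regions. CPM values are TMM-scaled, SDs are over 3 libraries, and fold changes are Prr14-KO over Prr14-WT. Sums were compared by two-sided exact permutation over 20 arrangements. Alternatives used RLE factors, library totals, other filters, DESeq2 1.42.0, limma-voom (limma 3.58.1), an adjusted p of 0.10 and leaving out each library. The fit was tested on simulated data. Symbols were matched to RefSeq tables of GRCm38.p6, the authors' build. For the kind of gene, a symbol absent there was looked up among the listed synonyms, so some symbols may be older names of named genes. Nearness to gene families was measured to gene spans, not to starts, since the RefSeq gene list has no strand. The labels name no spike-in, and scaling would remove an even change of the mark across the genome.

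Regions named are the 12 with the highest mean, the 5 with the smallest p per direction, the 3 widest, symbols with 3 or more regions, and Prr14. 4931408C20Rik and Gm10722 were also among the widest. Other named regions, the 2 stretches, the runs and the sequences shown were chosen after values were seen. The set of regions and the lists were chosen with earlier results of these data known.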

Additional observations from a re-analysis of the deposited data

How the results depend on the processing

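No paired analysis was made, because the labels state no pairing of libraries between the genotypes. With library totals, RLE factors, other filters, DESeq2, limma-voom, an adjusted p of 0.10 or 1 library left out, 0 gene-model promoters were called, and 15 to 20 of all regions were. The log2 difference of the summed share changed sign, to 0.042 without the 12 strongest regions and 0.052 without the 2 stretches, an alternative chosen after seeing the data, and that of the Gm sum to 0.028 without the 12. Leaving out 1 library gave -0.074 to 0.040 for the sum, -0.078 to 0.041 for Gm, -0.013 to 0.12 for Rik and -0.23 to 0.049 for the ratio to named-gene promoters. Each changed sign without Prr14-KO replicate 7, and the sum and Gm also without Prr14-WT replicate 4. None of these sums has a p under 0.10 by design. The density difference was 0.23 with the mean over regions (exact sign-flip permutation p = 0.03125) and 0.04 to 0.09 with 1 library left out. Without the 2 stretches, also chosen after seeing the data, it was 0.019, and -0.018 with the mean over regions.

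With 1 library left out the log2 difference of some single regions changed sign. It ran from -0.072 to 0.063 for Gm10800, -0.11 to 0.044 for Gm10718, -0.076 to 0.056 for Gm10722, -0.096 to 0.049 for Gm10801, -0.047 to 0.13 for Gm10717 at 3025510, -0.13 to 0.074 for Gm17535. It ran from -0.15 to 0.027 for Gm11168 at 3003375, -0.16 to 0.046 for Gm10720, -0.20 to 0.0084 for Gm11168 at 3004568, -0.055 to 0.093 for Gm10719 at 3018323, -0.11 to 0.20 for Gm10775, -0.11 to 0.067 for Gm10717 at 3029676. It ran from -0.23 to 0.38 for 4932414N04Rik at 68657829, -0.67 to 0.64 for 4932414N04Rik at 68660269, -0.38 to 0.18 for Gm6871 at 41573412, -0.51 to 0.037 for Gm8897 at 11415441, -0.32 to 0.80 for Gm8897 at 11417782. Apart from single libraries, the Gm10719 region at 3018323 turned to -0.000565 with library totals, -0.00164 with any count and -0.000862 with DESeq2, and the 4932414N04Rik region at 68657829 to 0.046 with limma-voom. The causes were not tested. Depth limits single regions, with a median standard error of 0.44.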
